A study of Homo sapiens with 9 samples.

Results

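The comparison set the 3 passage 8 libraries of UPCI-SCC-040 against the 6 libraries of passages 12 and 13, out of 9 libraries in all, to ask which genes differ by passage of the line. UPCI-SCC-040 is an established human line of oral squamous cell carcinoma, taken from the tongue. Each of the 3 passages gave 1 untreated control library and 2 libraries of cells that had received 5 ng/ml TGF-β1, 1 for 48 h and 1 for 72 h. The growth medium held 10% FBS, whereas TGF-β1 was given in medium without FBS and antibiotics, and all groups carry the same line with no other alteration named in the labels. Libraries were assigned by the passage in their labels, not by any measured value.

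Passage number counts how often a culture has been split and replated. A carcinoma line is a mixed population, and both the makeup of that population and its stable expression states can drift over passages, so passage is a usual source of difference between replicates of a line. TGF-β1 is a cytokine that acts through SMAD proteins, and in squamous cells it is known to slow division and to raise matrix and mesenchymal genes. The labels do not say whether libraries of 1 passage came from separate dishes, nor when they were made. P-values therefore measure only the spread between these libraries, and passage cannot be told apart from anything else that differed between the 3 sets of cultures.

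Library totals ran from 12544690 to 16425323 counts at passage 8 and from 16142262 to 20438727 at passages 12 and 13, so the passage 8 libraries were among the shallower ones. The passage 8 library of 72 h stood apart from the other 8 in its makeup: MALAT1, a nuclear long noncoding RNA, took 1.54% of its counts against 0.247% to 0.507% in the rest, and cytosolic ribosomal protein genes took 1.04% against 1.60% to 2.90%. Counts or medians of the gene groups described in paragraphs of their own are given with and without it below. Markers of squamous epithelium (10 of 10 tested) summed to between 17480 and 30950 CPM, the read count of a gene scaled to a common library size, at passage 8 and 12230 to 34470 at the later passages. Of markers of other cell types, TYR, SOX10, MYOD1 and DES had no count in any library, which allows up to 0.239 CPM in the shallowest one at 3 counts, for counting error only. The 8 immune markers summed to 1.141 to 2.22 CPM at passage 8 and 0.62 to 2.04 CPM later, the 6 endothelial markers to 6.24 to 13.0 CPM and 3.99 to 8.98 CPM, and the 10 fibroblast markers, which include the matrix gene COL1A2, to 15.7 to 134 CPM and 13.8 to 117 CPM. In bulk RNA, fewer cells of a kind and less RNA per cell cannot be told apart.

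Without TGF-β1 the control libraries of the 3 passages lay at similar distances from each other. The median absolute log2 difference over 15440 genes was 0.16 between passages 8 and 12, 0.17 between passages 8 and 13 and 0.18 between passages 13 and 12. After 48 h the same distances were 0.27, 0.31 and 0.24. After 72 h they were 0.40 and 0.41 for passage 8 against 12 and 13, and 0.25 between the later passages. The share of genes more than 2-fold apart was 3.69%, 3.63% and 3.45% in controls, and 16.6%, 17.6% and 5.97% at 72 h, in the same order. These distances come from 1 library a passage and time and carry no test.

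**Figure D1:**
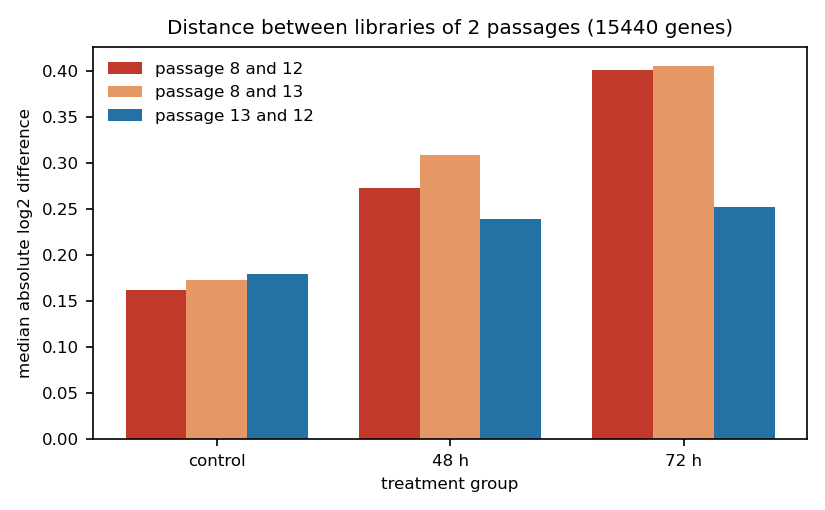
Median absolute log2 difference (vertical axis) over 15440 tested genes between 2 libraries of the same treatment group, for each pair of passages. The 3 bars are nearly level in controls (0.16 to 0.18), and at 72 h both pairs that hold passage 8 (0.40 and 0.41) lie above the pair of later passages (0.25).

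FN1, which encodes the matrix glycoprotein fibronectin, was the 1 gene whose level differed by passage in edgeR's quasi-likelihood test with treatment group as covariate, at a Benjamini-Hochberg adjusted p under 0.05 over 15440 genes. It was higher in passage 8. That is 0.00648% of the genes tested, and no gene was lower. An unadjusted p under 0.05 was reached by 2332 genes (15.1%), of which 1438 were higher (9.31%) and 894 lower (5.79%) in passage 8. In 1224 genes (7.93%) the passage 8 library lay above both later passages in all 3 treatment groups, and in 993 (6.43%) below both. On simulated data with this design the test found 5.97% of genes changed 1.5-fold, 50.8% of those changed 2-fold and 92.4% of those changed 4-fold. It also called 13 unchanged genes. The simulated libraries were drawn independently, so deviations shared by libraries of 1 passage were not part of it.

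DESeq2 with the same model called 341 of 14841 genes (2.3%), 299 higher (2.01%) and 42 lower (0.283%) in passage 8. Without the passage 8 library of 72 h it called 10 of 15842 genes (0.0631%), 9 higher and 1 lower, an alternative chosen after seeing the data. The 9 were FN1, COL1A2, NLRP7, DDX60, IFI44, DHX58, ROBO1, HEPHL1 and LINC01470, and the 1 lower gene was ID1. In edgeR without that library FN1 was again the 1 call (0.00631%), and the genes at an unadjusted p under 0.05 came to 442 higher (2.79%) and 375 lower (2.37%) of 15842. Passage 8 as a contrast with the replicate number as a block, where each number is 1 passage, gave 10 edgeR calls (0.0648%), all higher: FN1, NLRP7, ARRB1, TBC1D4, CLEC7A, LINC01470, SLC38A4, VGLL3, LGR6 and CLDN16. Most of the genes named in this paragraph fell outside the rule for named genes and were taken because an alternative called them.

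**Figure D2:**
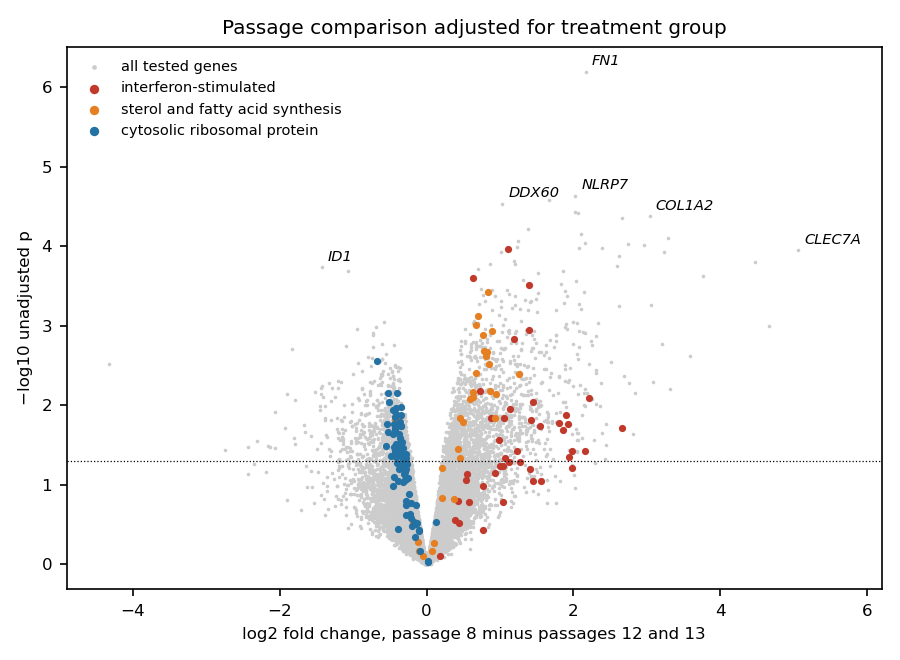
Each point is 1 of 15440 genes, with the log2 fold change of passage 8 over passages 12 and 13, adjusted for treatment group, on the horizontal axis and −log10 of the unadjusted p from edgeR on the vertical axis, and the dotted line marks 0.05. FN1 lies above all others, interferon-stimulated and sterol genes lie mostly right of 0 and ribosomal protein genes mostly left of it.

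The FN1 difference was there without TGF-β1. FN1 (ENSG00000115414, chromosome 2, 215360440 to 215436172, minus strand, hg38) stood at 53.8 CPM in the passage 8 control and at 8.92 and 10.0 CPM in those of passages 12 and 13. After 48 h it stood at 291 CPM against 52.1 and 60.1 CPM, and after 72 h at 240 CPM against 97.7 and 63.1 CPM. The passage 8 library was the highest of its treatment group each time, and the passage 8 control lay between the 2 later passages after 48 h of TGF-β1. The log2 fold change was 2.16 (SE 0.19, 3 libraries against 6, edgeR adjusted p = 0.00983). From control to 48 h the log2 difference of FN1 was 2.43, 2.53 and 2.57 in passages 8, 12 and 13, and from control to 72 h it was 2.15, 3.44 and 2.64. The difference of the passage effect between treated and control libraries was -0.51 (edgeR adjusted p = 0.779). The adjusted p for passage was 0.246 without passage 13, 0.0583 without its 72 h library, 0.47 without the passage 8 library of 48 h and 0.199 against a 2-fold threshold. The log2 fold change stayed between 1.98 and 2.45 over 21 alternatives, of which 17 kept an adjusted p under 0.05.

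The FN1 promoter is shown because FN1 carries the finding. The 250 bases before its RefSeq start (GRCh38.p14, chr2:215436069-215436318, minus strand) hold 1 cyclic AMP response element, the motif TGACGTCA searched on both strands (it is its own reverse complement) and given in capitals. Of 27305 promoters of that length, 482 (1.77%) hold it. The match is a description of the letters and no test of a factor.
FN1: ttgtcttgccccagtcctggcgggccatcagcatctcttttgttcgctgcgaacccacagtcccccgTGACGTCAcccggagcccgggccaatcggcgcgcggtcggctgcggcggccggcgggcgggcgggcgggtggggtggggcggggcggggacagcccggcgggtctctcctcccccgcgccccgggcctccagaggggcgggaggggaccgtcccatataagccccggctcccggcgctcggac

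Of 27 tested genes of collagen, matrix and integrins, 9 were higher and 2 lower in passage 8 at an unadjusted p under 0.05, against 9.31% and 5.79% of all genes. None passed the edgeR adjusted threshold, and DESeq2 called 6 higher, against 2.01% of all genes. Their median log2 fold change was 0.32, against -0.01 over all tested genes. With the passage 8 library of 72 h left out, 6 were higher and none lower at that p, against 2.79% and 2.37% of all genes, and the median was 0.12. In the whole set 17 of 27 had a log2 fold change above 0 and 10 below. The fibroblast marker sums, given above, overlapped between the passages, and their part in the matrix values was not tested.

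COL1A2 encodes a chain of type I collagen. It was under 1 CPM in all 3 controls, 0.93 CPM at passage 8 and 0.18 and 0.48 CPM at passages 12 and 13. After 48 h it was at 17.7 CPM against 2.49 and 0.74 CPM, and after 72 h at 20.8 CPM against 2.48 and 1.77 CPM. Both treated passage 8 libraries lay far above the others, and the log2 fold change was 3.04 (SE 0.41, edgeR adjusted p = 0.0832, DESeq2 adjusted p = 4.26e-08). Without the passage 8 library of 72 h the log2 fold change of COL1A2 was 2.86 in edgeR (edgeR adjusted p = 0.792) and 2.75 in DESeq2 (DESeq2 adjusted p = 0.00215). COL1A1, the partner chain, described as a member of the fibroblast markers, had another order: 10.8 CPM against 12.4 and 9.61 CPM in controls, 64.2 against 87.2 and 35.3 CPM at 48 h and 89.3 against 52.5 and 18.2 CPM at 72 h, with passage 8 between the later passages at the first 2 of these (log2 fold change 0.52, SE 0.46, edgeR adjusted p = 0.600).

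FBN1, which encodes fibrillin of elastic microfibrils, was at 2.94 CPM in the passage 8 control against 1.93 and 1.88 CPM, at 9.70 against 4.99 and 5.70 CPM after 48 h and at 10.9 against 5.19 and 4.96 CPM after 72 h. Its log2 fold change was 0.89 (SE 0.17, edgeR adjusted p = 0.128). ITGB6, the beta chain of an integrin that frees latent TGF-β, was at 88.4 CPM against 61.3 and 72.5 CPM in controls, at 710 against 406 and 278 CPM at 48 h and at 787 against 323 and 192 CPM at 72 h. Passage 8 was highest in each group for both genes, with a log2 fold change of 1.05 for ITGB6 (SE 0.24, edgeR adjusted p = 0.182).

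Among 21 tested mesenchymal and EMT genes, FN1 was the 1 edgeR call, and 7 were higher and 1 lower at an unadjusted p under 0.05, against 9.31% and 5.79% of all genes. After omission of the passage 8 library of 72 h, 4 were higher and none lower, against 2.79% and 2.37%. S100A4, a calcium-binding protein of motile cells, was at 7.02 CPM against 4.401 and 4.73 CPM in controls, 26.9 against 12.7 and 7.11 CPM at 48 h and 107 against 15.2 and 8.38 CPM at 72 h. The gap was largest in the 72 h library, and the log2 fold change was 1.92 (SE 0.48, edgeR adjusted p = 0.224). TPM2, a tropomyosin of actin filaments, lay closer together, at 698 CPM against 515 and 693 CPM in controls and 1476 against 898 and 757 CPM at 72 h (log2 fold change 0.49, SE 0.16, edgeR adjusted p = 0.254).

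**Figure D3:**
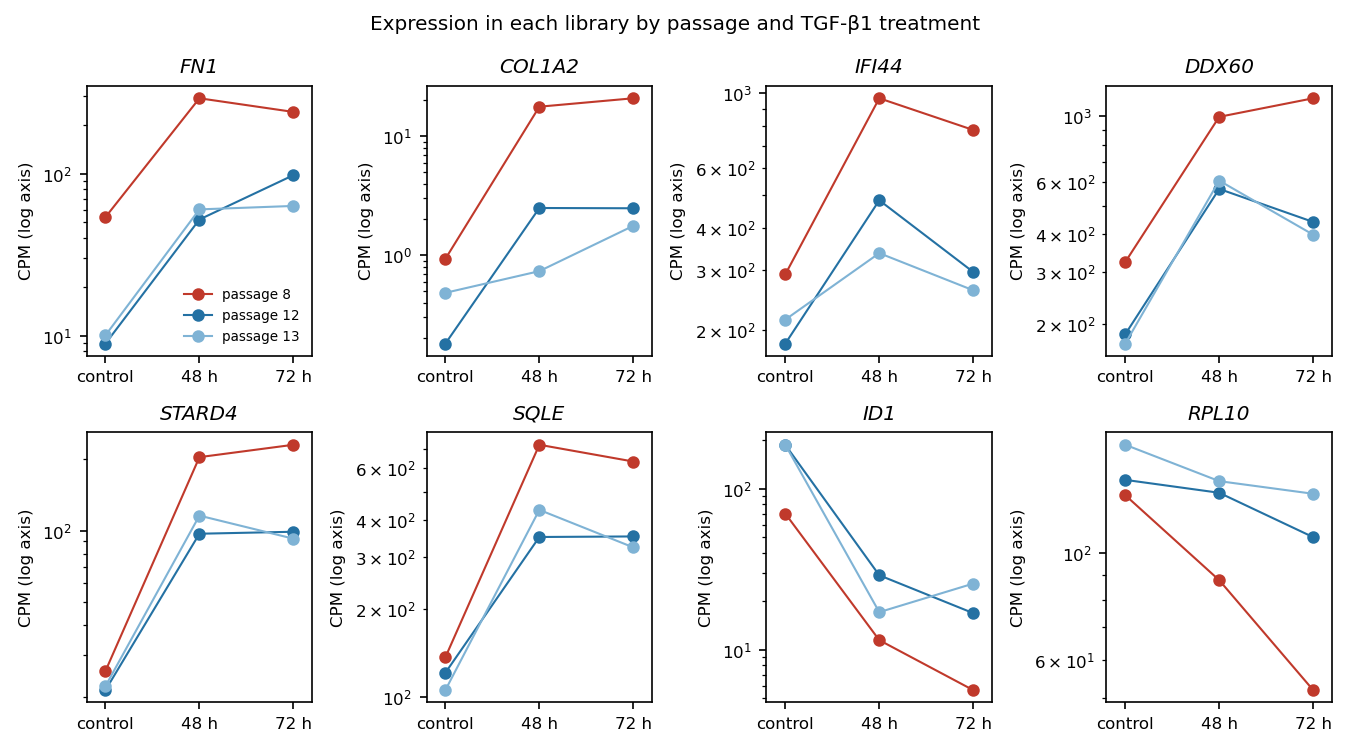
CPM on a log axis in each of the 9 libraries for 8 genes, by treatment group (horizontal axis), with 1 line for each passage. Passage 8 lies above both later passages in all 3 groups for FN1, COL1A2, IFI44, DDX60, STARD4 and SQLE, and below both for ID1 and RPL10.

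ID1, a target of BMP signalling whose product blocks basic helix-loop-helix factors, was the gene lower in passage 8 with the smallest p. It was at 70.2 CPM in the passage 8 control and at 188 CPM in each later control. After 48 h it was at 11.5 CPM against 29.1 and 17.2 CPM, and after 72 h at 5.62 CPM against 16.9 and 25.8 CPM. Passage 8 was the lowest in all 3 groups, with a log2 fold change of -1.43 (SE 0.23, edgeR adjusted p = 0.0964, DESeq2 adjusted p = 4.53e-06). Without the 72 h library of passage 8 the log2 fold change was -1.21 in DESeq2 (DESeq2 adjusted p = 0.00292) and -1.23 in edgeR (edgeR adjusted p = 0.792). The related ID3 was at 26.6 CPM in the passage 8 control against 57.6 and 64.7 CPM, but at 3.59 against 2.79 and 1.96 CPM after 48 h, so that passage 8 was lowest in controls and highest at 48 h (log2 fold change -0.36, SE 0.43, edgeR adjusted p = 0.696). ID2 was likewise lowest in the passage 8 control, at 4.16 CPM against 15.4 and 9.34 CPM, and lay between the later passages at 72 h, at 1.67 against 1.69 and 0.57 CPM. ID2 and ID3 were added after their values were seen.

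Of the 25 tested TGF-β target genes as a whole, 2 were higher and 2 lower at an unadjusted p under 0.05, against 9.31% and 5.79% of all genes, with a median log2 fold change of -0.16. Without the passage 8 library of 72 h none was higher and 1 was lower, against 2.79% and 2.37% of all genes. SMAD7, the inhibitory SMAD induced by the pathway, was lower in passage 8 by little: 67.8 CPM against 88.9 and 77.9 CPM in controls, 156 against 182 and 168 CPM at 48 h and 125 against 167 and 147 CPM at 72 h (log2 fold change -0.26, SE 0.10, edgeR adjusted p = 0.284). BAMBI, a decoy receptor of the family, was between 1.25 and 5.14 CPM in all libraries and highest in passage 8 in each group (log2 fold change 0.76, SE 0.29, edgeR adjusted p = 0.28). TGFBR3, the co-receptor betaglycan, tied at the next adjusted p after FN1. It stood at 1.94 CPM against 0.72 and 0.48 CPM in controls, 2.77 against 0.75 and 0.92 CPM at 48 h and 12.8 against 1.86 and 0.68 CPM at 72 h (log2 fold change 2.39, SE 0.39, edgeR adjusted p = 0.0832).

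TGFBR3 is 1 of 21 genes that shared this adjusted p of 0.0832. All 21 were higher in passage 8. In 20 of them the passage 8 library lay beyond both later passages in every treatment group, against 7.93% of all genes above both. DESeq2 called all 21, against 2.01% of all genes called higher. Choice by a small p on the same libraries favours such an order and such calls. Of the 21, 15 were under 1 CPM in both later controls. The share of all tested genes under that level was not counted, so scarcity cannot be called a trait of this set. NLRP7, an inflammasome-family gene known for maternal-effect disorders of imprinting, stood at 1.86 CPM against 0.66 and 0.81 CPM in controls, 8.23 against 1.55 and 1.16 CPM at 48 h and 9.21 against 3.04 and 1.71 CPM at 72 h (log2 fold change 2.03, SE 0.28). ARRB1, the scaffold beta-arrestin, stood at 1.36 CPM against 0.42 and 0.59 CPM, then 14.1 against 5.14 and 4.11 CPM and 17.9 against 6.43 and 3.42 CPM (log2 fold change 1.67, SE 0.23). In both genes passage 8 was already highest in the control, and treated libraries were above the control of their own passage.

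ROBO1, a receptor of SLIT guidance cues, was at 11.8 CPM against 7.29 and 4.67 CPM in controls, 19.2 against 6.13 and 6.68 CPM at 48 h and 9.02 against 4.85 and 3.36 CPM at 72 h (log2 fold change 1.24, SE 0.20, edgeR adjusted p = 0.0832). HEPHL1, a multicopper oxidase of keratinocytes, was at 15.9 CPM against 9.28 and 9.83 CPM, 63.1 against 18.7 and 16.2 CPM and 116 against 43.6 and 22.6 CPM in the same order (log2 fold change 1.51, SE 0.25, edgeR adjusted p = 0.102). LGR6, a receptor of R-spondins that marks epithelial stem cells of skin, was at 1.29 CPM against 1.09 and 0.21 CPM, 24.7 against 9.48 and 4.53 CPM and 60.4 against 11.7 and 7.01 CPM (log2 fold change 2.07, SE 0.41, edgeR adjusted p = 0.176). Passage 8 was the highest library of each group in all 3 genes.

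CLEC7A, the beta-glucan receptor dectin-1 best known from myeloid cells, and the long noncoding RNA LINC01470 were nearly silent in every control, at 0.22, 0 and 0.05 CPM and at 0.29, 0.06 and 0.05 CPM in passages 8, 12 and 13. The 0 of CLEC7A allows up to 0.186 CPM at 3 counts. After 72 h CLEC7A was at 79.3 CPM in passage 8 and at 2.14 and 0.68 CPM in passages 12 and 13. LINC01470 was at 18.9 CPM against 3.21 and 0.40 CPM. At 48 h CLEC7A was at 28.1 CPM in passage 8, 2.44 CPM in passage 12 and 0.25 CPM in passage 13. The 8 immune markers together reached at most 2.22 CPM in any library, below CLEC7A alone in both treated passage 8 libraries. Which cells gave the CLEC7A reads was not tested.

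Interferon-stimulated genes, which encode antiviral effectors and sensors, stood higher in passage 8 as a group. All 43 tested members had a log2 fold change above 0, and 24 of 43 were higher and none lower at an unadjusted p under 0.05, against 9.31% and 5.79% of all genes. None passed the edgeR adjusted threshold, and DESeq2 called 10, against 2.01% of all genes. The median difference of the list stood at 0.27 in controls, 1.34 after 48 h and 2.01 after 72 h on the log2 scale, against 0.00, 0.00 and 0.03 for all genes. With the passage 8 library of 72 h left out, 7 of 43 were higher, against 2.79% of all genes, and the median log2 fold change was 0.70 in place of 1.13. It was 0.75 without passage 13 and 1.53 without passage 12. The direction held in each of these, and the size depended on which library or passage was left out.

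IFI44, an interferon-induced cytoplasmic protein, was at 292 CPM in the passage 8 control against 182 and 215 CPM, at 966 against 483 and 337 CPM after 48 h and at 779 against 297 and 262 CPM after 72 h. The log2 fold change was 1.11 (SE 0.18, edgeR adjusted p = 0.0832, DESeq2 adjusted p = 3.21e-05). Without the passage 8 library of 72 h the log2 fold change of IFI44 was 0.91 in edgeR (edgeR adjusted p = 0.792) and 0.92 in DESeq2 (DESeq2 adjusted p = 0.0226). DDX60, a helicase that acts with RNA sensors and was not on the list, was at 323 CPM against 185 and 172 CPM, at 994 against 569 and 606 CPM and at 1147 against 440 and 399 CPM (log2 fold change 1.03, SE 0.14, edgeR adjusted p = 0.0832). In both genes passage 8 lay above both later passages at every time, the control included.

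DHX58, which encodes the RNA sensor LGP2, was at 30.4 CPM against 14.7 and 20.03 CPM in controls, 61.9 against 32.0 and 18.9 CPM at 48 h and 119 against 32.6 and 26.3 CPM at 72 h (log2 fold change 1.40, SE 0.24, edgeR adjusted p = 0.12). GBP3, a guanylate-binding protein, was at 19.3 CPM against 14.7 and 15.2 CPM, 68.6 against 41.6 and 47.2 CPM and 85.6 against 48.4 and 44.1 CPM (log2 fold change 0.64, SE 0.12, edgeR adjusted p = 0.112). Passage 8 was highest in every group for both. TLR3, the endosomal sensor of double-stranded RNA, was added after its values were seen: it was at 2.58 CPM against 1.51 and 2.31 CPM in controls and at 36.6 against 4.51 and 3.42 CPM at 72 h (log2 fold change 2.05, SE 0.46, edgeR adjusted p = 0.188).

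The promoters of IFI44 and DDX60 are shown because both interferon-regulated genes were called by DESeq2 with and without the library that stood apart. DHX58 met the same criterion, and no sequence is given for it. The motif searched was the interferon-stimulated response element GAAANNGAAA on both strands, where its reverse complement reads TTTCNNTTTC, in the 250 bases before the RefSeq start (GRCh38.p14). It is in capitals, once in IFI44 (chr1:78649539-78649788, plus strand) and at 2 places in DDX60 (chr4:168318753-168319002, minus strand). Of 33 list members with a promoter in the RefSeq table, 20 (60.6%) held it, against 839 of all 27305 promoters (3.07%). A match describes letters only.
IFI44: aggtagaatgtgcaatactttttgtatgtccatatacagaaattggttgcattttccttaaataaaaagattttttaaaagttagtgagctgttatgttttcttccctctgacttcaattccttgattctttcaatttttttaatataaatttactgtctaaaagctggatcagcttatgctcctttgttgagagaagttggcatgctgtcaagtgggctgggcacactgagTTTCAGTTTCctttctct
DDX60: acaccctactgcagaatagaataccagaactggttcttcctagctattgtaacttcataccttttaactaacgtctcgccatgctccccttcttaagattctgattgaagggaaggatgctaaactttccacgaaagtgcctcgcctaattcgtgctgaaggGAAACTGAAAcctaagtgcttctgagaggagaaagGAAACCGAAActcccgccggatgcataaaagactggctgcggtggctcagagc

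Genes of MHC class I antigen presentation, many of which interferons also induce, had the same order with smaller sizes. Of 16 tested, 10 were higher and none lower at an unadjusted p under 0.05, against 9.31% and 5.79% of all genes, and DESeq2 called 5, against 2.01%. The median log2 difference stood at 0.27 in controls, 0.47 after 48 h and 1.28 after 72 h. After omission of the passage 8 library of 72 h, 1 of 16 was higher at that p, against 2.79% of all genes. PSMB9, a subunit of the immunoproteasome, was at 7.81 CPM against 6.09 and 4.62 CPM in controls, 15.4 against 9.08 and 5.70 CPM at 48 h and 54.4 against 12.7 and 4.44 CPM at 72 h (log2 fold change 1.54, SE 0.47, edgeR adjusted p = 0.254). ERAP2, a peptidase that trims peptides for MHC class I, was at 7.38 CPM against 4.28 and 7.30 CPM, 12.5 against 7.03 and 4.53 CPM and 17.1 against 5.58 and 3.13 CPM (log2 fold change 1.19, SE 0.33, edgeR adjusted p = 0.224).

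Of 33 tested genes of cholesterol and fatty acid synthesis, 22 were higher and 2 lower in passage 8 at an unadjusted p under 0.05, against 9.31% and 5.79% of all genes. None passed the edgeR adjusted threshold, and DESeq2 called 15 higher, against 2.01% of all genes. The median log2 difference stood at 0.15 in controls, 0.72 after 48 h and 0.91 after 72 h. No gene passed the adjusted threshold of edgeR's test of whether the passage 8 difference changed between treated and control libraries. On simulated data that test found 1.49% of genes changed 2-fold. Without the passage 8 library of 72 h, 16 of 33 were higher and 1 lower at that p, against 2.79% and 2.37% of all genes, and the median log2 fold change was 0.45 against 0.63 with it.

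SQLE, the squalene epoxidase, was at 137 CPM against 121 and 106 CPM in controls, 721 against 350 and 433 CPM at 48 h and 633 against 352 and 323 CPM at 72 h (log2 fold change 0.70, SE 0.15, edgeR adjusted p = 0.161). FDFT1, the squalene synthase, was at 97.0 CPM against 79.7 and 86.1 CPM, 528 against 259 and 317 CPM and 473.5 against 276 and 237 CPM (log2 fold change 0.67, SE 0.15, edgeR adjusted p = 0.174). STARD4, a carrier of cholesterol between membranes, was at 25.7 CPM against 21.4 and 22.2 CPM, 203 against 97.0 and 116 CPM and 229 against 98.9 and 92.5 CPM (log2 fold change 0.84, SE 0.16, edgeR adjusted p = 0.128). In these 3 genes passage 8 was highest in every group, by a small margin in controls and by more in both treated groups.

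Antioxidant and detoxifying genes controlled by NRF2 were higher in passage 8 in 11 of 27 tested and lower in none at an unadjusted p under 0.05, against 9.31% and 5.79% of all genes, and DESeq2 called 4, against 2.01% higher. With the passage 8 library of 72 h left out, 5 were higher and none lower, against 2.79% and 2.37%. Their median log2 difference stood at 0.06 in controls, 0.63 after 48 h and 0.52 after 72 h. AKR1C1, an aldo-keto reductase, was at 19.3 CPM against 10.6 and 8.43 CPM in controls, 575 against 232 and 70.5 CPM at 48 h and 684 against 67.8 and 49.6 CPM at 72 h (log2 fold change 2.30, SE 0.53, edgeR adjusted p = 0.204). AKR1C1 has near-identical relatives such as AKR1C2, between which reads could have been split or lost. PGD, an enzyme of the pentose phosphate pathway, was at 126 CPM against 96.0 and 98.3 CPM, 385 against 225 and 187 CPM and 206 against 171 and 120 CPM (log2 fold change 0.60, SE 0.15, edgeR adjusted p = 0.184). ME1, the cytosolic malic enzyme, overlapped in controls at 30.0 CPM against 26.3 and 31.3 CPM and was higher after treatment, at 86.7 against 43.1 and 45.95 CPM and 119 against 36.8 and 39.9 CPM (log2 fold change 0.94, SE 0.23, edgeR adjusted p = 0.199).

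Medians of the proliferation lists lay near 0 in controls and were lowest in the 72 h library, and that of G2 and mitosis was above 0 at 48 h. The 36 genes of G2 and mitosis had a median log2 difference of -0.08 in controls, 0.54 at 48 h and -1.47 at 72 h, and the 39 genes of S phase -0.03, -0.10 and -1.44. Across the treatment groups 1 of the 39 S phase genes was lower at an unadjusted p under 0.05, none was higher, and none of the 36 mitotic genes reached that p in either direction, against 9.31% higher and 5.79% lower of all genes. After omission of the passage 8 library of 72 h the median log2 fold change of the mitotic genes turned from -0.24 to 0.24, and that of the S phase genes went from -0.48 to -0.05. MKI67, the Ki-67 proliferation antigen, was at 428 CPM against 557 and 540 CPM in controls, 164 against 126 and 214 CPM at 48 h and 27.1 against 144 and 59.3 CPM at 72 h (log2 fold change -0.68, SE 0.43, edgeR adjusted p = 0.469). AURKB, a mitotic kinase, was level in controls at 136 CPM against 138 and 129 CPM and at 7.41 against 59.5 and 28.2 CPM at 72 h. MCM7, part of the replicative helicase, was at 525 CPM against 522 and 606 CPM in controls and 69.8 against 260 and 144 CPM at 72 h. At 72 h passage 13 lay between passages 8 and 12 in all 3 genes.

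The 48 tested replication-dependent histone genes had a median log2 difference of -0.02 in controls, 0.10 at 48 h and -2.49 at 72 h, and without the passage 8 library of 72 h their median fold change was 0.03 in place of -0.62. HIST1H4J was at 6.67 CPM against 6.99 and 8.86 CPM in controls and 0.49 against 2.42 and 2.22 CPM at 72 h (log2 fold change -0.90, SE 0.34, edgeR adjusted p = 0.273). HIST1H3E and HIST1H4I had the opposite order at 72 h, at 28.7 CPM against 10.2 and 10.1 CPM and at 19.5 against 10.99 and 5.87 CPM. Histone genes are near-identical copies, and how reads with several alignments were counted is not given in the sources used here.

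**Figure D4:**
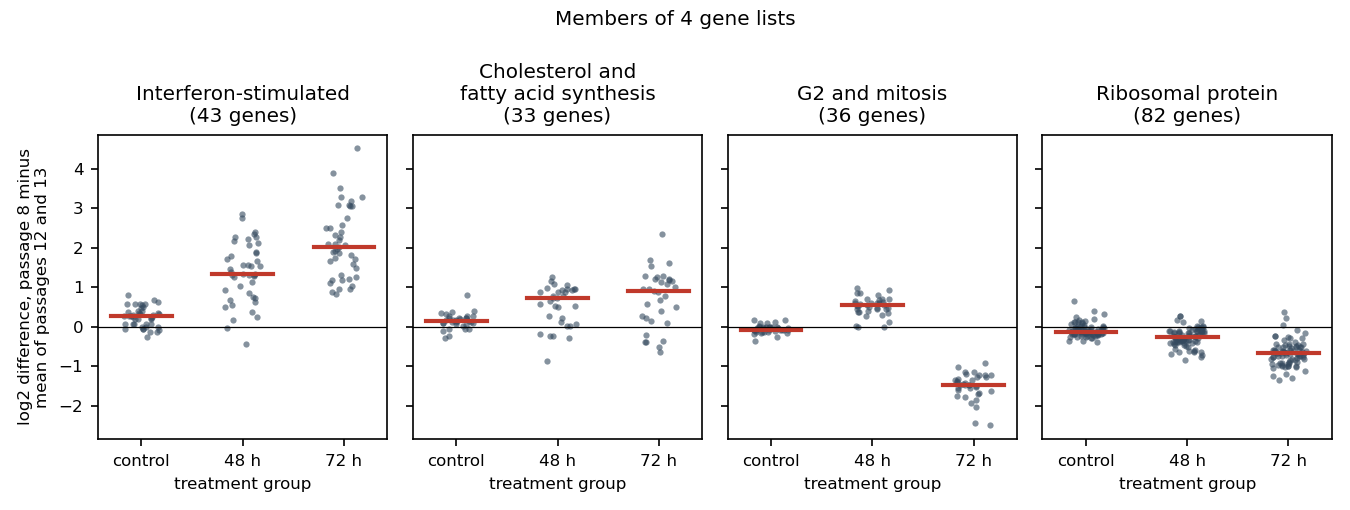
Log2 difference of the passage 8 library from the mean of passages 12 and 13 (vertical axis) for each member of 4 gene lists, by treatment group, with the list's median as a bar. Interferon-stimulated genes have medians of 0.27, 1.34 and 2.01 from control to 72 h, sterol and fatty acid genes 0.15, 0.72 and 0.91, mitotic genes -0.08, 0.54 and -1.47, and ribosomal protein genes -0.12, -0.25 and -0.66.

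Most cytosolic ribosomal protein genes were slightly lower in passage 8, and least so in controls. Of 82 tested, 79 had a log2 fold change below 0, 43 were lower and none higher at an unadjusted p under 0.05, against 5.79% and 9.31% of all genes, and DESeq2 called 1, against 0.283% lower. The median log2 difference stood at -0.12 in controls, -0.25 after 48 h and -0.66 after 72 h, and without the passage 8 library of 72 h, 4 of 82 were lower, against 2.37% of all genes. Without passage 13, 5 of 82 were lower at that p, and without passage 12, 12, against 2.25% and 4.12% of all genes. The median log2 fold changes were then -0.35 and -0.36. In 32 of 82 passage 8 lay below both later passages in every group, against 6.43% of all genes. Their share of counts in controls was 2.49% at passages 8 and 12 and 2.90% at passage 13. RPL10 was at 132 CPM against 142 and 168 CPM in controls, 87.8 against 133 and 141 CPM at 48 h and 51.8 against 108 and 133 CPM at 72 h (log2 fold change -0.68, SE 0.17, edgeR adjusted p = 0.191). RPS25 was at 82.1 CPM against 83.0 and 98.5 CPM, 41.1 against 63.4 and 64.7 CPM and 40.2 against 51.8 and 56.7 CPM (log2 fold change -0.40, SE 0.12, edgeR adjusted p = 0.231).

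Hypoxia and glycolysis genes were lower in 9 of 33 and higher in 1 at an unadjusted p under 0.05, against 5.79% and 9.31% of all genes. Without the passage 8 library of 72 h they were lower in 3 of 33 and higher in 1, against 2.37% and 2.79%. PFKFB3, whose product makes the activator of phosphofructokinase, differed alike at all times, at 84.8 CPM against 110 and 108 CPM in controls, 71.0 against 82.0 and 88.9 CPM at 48 h and 68.5 against 99.3 and 89.9 CPM at 72 h (log2 fold change -0.37, SE 0.10, edgeR adjusted p = 0.199). PFKP, the platelet phosphofructokinase, was at 382.5 CPM against 419 and 411 CPM in controls and 118 against 276 and 260.5 CPM at 72 h (log2 fold change -0.62, SE 0.18, edgeR adjusted p = 0.225). TPI1, triosephosphate isomerase, was at 385 CPM against 434 and 437 CPM and at 165 against 294 and 320 CPM (log2 fold change -0.51, SE 0.15, edgeR adjusted p = 0.231).

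Keratinocyte differentiation genes depended on which later passage served as reference. Of 28 tested, 6 were lower and none higher at an unadjusted p under 0.05, against 5.79% and 9.31% of all genes, with a median log2 fold change of -0.58. With the passage 8 library of 72 h left out, 5 were lower, against 2.37%, and the median was -0.79. Without passage 13, 14 of 28 were lower, against 2.25% of all genes lower and 4.73% higher, and the median was -0.90. Without passage 12, 2 of 23 were lower and 3 higher, against 4.12% and 7.67% of all genes, and the median was 0.09. The filter on low counts was rerun there and kept 23 genes in place of 28. The part of the lost genes in this shift was not tested. CSTA, the cornified envelope protein cystatin A, was at 32.8 CPM against 44.7 and 39.4 CPM in controls, 45.0 against 129 and 66.5 CPM at 48 h and 47.7 against 103 and 145 CPM at 72 h (log2 fold change -0.94, SE 0.27, edgeR adjusted p = 0.24). CALML5, a calmodulin-like protein of the upper epidermis, was level in controls at 30.0 CPM against 30.5 and 33.0 CPM and lower after treatment, at 14.7 against 30.8 and 51.8 CPM and 13.3 against 28.8 and 45.0 CPM (log2 fold change -0.96, SE 0.33, edgeR adjusted p = 0.268).

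Of the 19 tested genes of DNA methylation and chromatin silencing, 2 were lower and none higher at an unadjusted p under 0.05, with and without the passage 8 library of 72 h. The share of all genes lower was 5.79% with it and 2.37% without it. KDM6B, an H3K27 demethylase, was at 4.59 CPM against 5.73 and 6.23 CPM in controls, 4.075 against 8.68 and 10.7 CPM at 48 h and 4.02 against 9.81 and 9.06 CPM at 72 h (log2 fold change -0.94, SE 0.21, edgeR adjusted p = 0.176). The treated libraries of the later passages lay above their own controls, whereas the 3 passage 8 libraries lay between 4.02 and 4.59 CPM. DNMT3B, a de novo DNA methyltransferase, was at 22.7 CPM against 32.6 and 23.3 CPM in controls and 4.51 against 13.0 and 10.5 CPM at 72 h (log2 fold change -0.70, SE 0.24, edgeR adjusted p = 0.265).

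The other lists are given by counts, beside a background of 9.31% higher and 5.79% lower. At an unadjusted p under 0.05, p53 targets were higher in 2 of 27, basal keratinocyte genes in 1 of 18 with 2 lower, immediate early genes in 3 of 29 with 1 lower, ATF4 and unfolded protein response genes in 1 of 32 with 2 lower, imprinted genes in 1 of 15 and mitochondrially encoded genes in none of 13. Heat shock and chaperone genes were higher in 4 of 21 with 2 lower, senescence-associated cytokines and chemokines in 4 of 24, nutrient transporters in 4 of 18, nuclear-retained long noncoding RNAs in 1 of 6 and stem-like and drug resistance genes in 1 of 15 with 1 lower. Of 28 cancer-testis antigen genes, often silenced by DNA methylation in normal cells, 2 had enough counts to be tested and neither reached that p. The ATF4 and unfolded protein response list had 27 of 32 members below 0 and a median log2 fold change of -0.40. Without passage 12, 12 of 32 were lower at that p, and without passage 13, 2, against 4.12% and 2.25% of all genes. The medians were then -0.59 and -0.08.

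**Figure D5:**
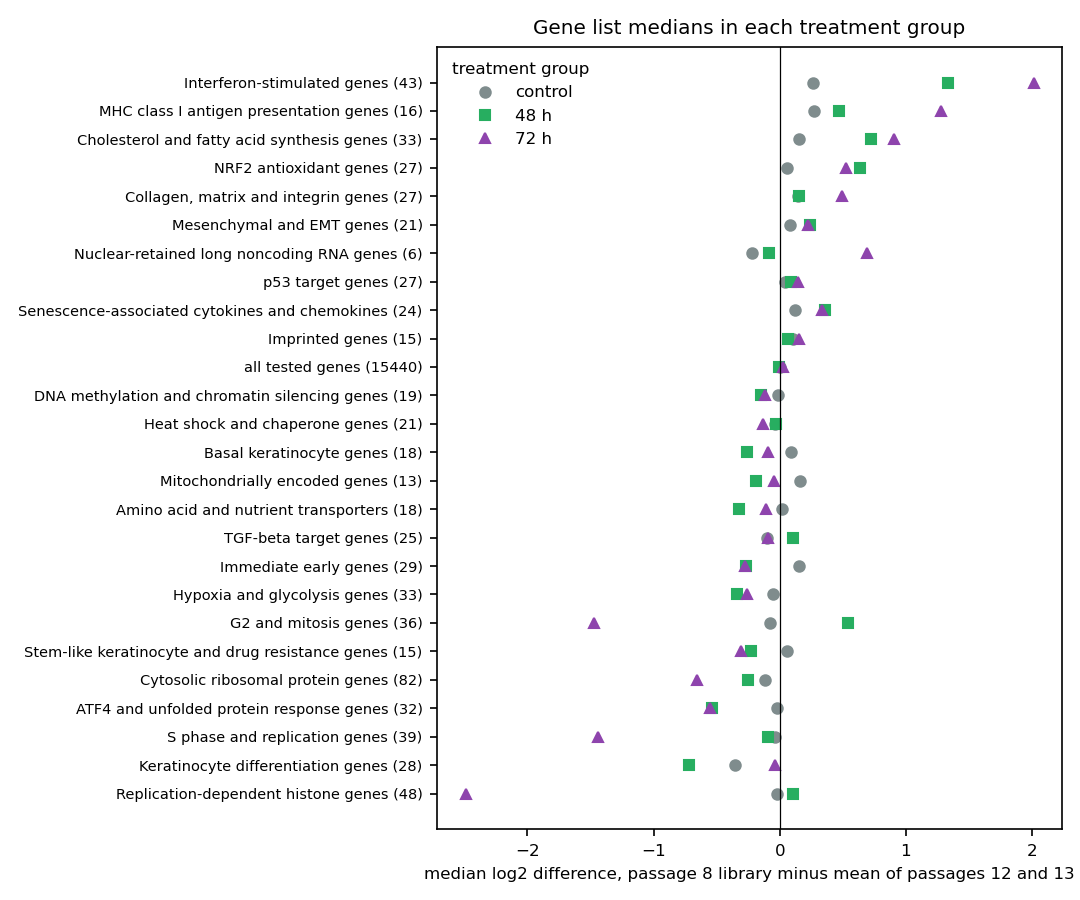
Median log2 difference (horizontal axis) of the passage 8 library from the mean of passages 12 and 13 over the tested members of each gene list (number in parentheses), with 1 marker for each treatment group. Control markers lie near 0 for most lists, interferon-stimulated genes reach 2.01 and histone genes -2.49 at 72 h, and all tested genes lie at 0.00 to 0.03.

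Whether the passage 8 difference was the same in treated and control libraries was tested as an interaction. TGF-β1 was given in medium without FBS and antibiotics, so treated libraries may also differ from controls in medium and culture time. These cannot be told apart from TGF-β1 here. edgeR called no gene of 15440 (0%) at an adjusted p under 0.05, with 1165 genes (7.55%) at an unadjusted p under 0.05, and DESeq2 called 19 of 11548 (0.165%). On simulated data this test found 43.9% of genes changed 4-fold and 1.49% of those changed 2-fold, so smaller interactions were mostly beyond its reach. ABCG1, EREG and PEG10 had the smallest p and were named for that.

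ABCG1, a cholesterol and phospholipid exporter, was alike in controls at 2.58 CPM against 2.71 and 1.88 CPM. After 48 h it was at 7.74 CPM in passage 8 against 53.3 and 45.6 CPM, and after 72 h at 15.3 CPM against 73.5 and 72.1 CPM. Both later passages lay close together and passage 8 lay far below them in the treated groups, with a log2 interaction of -2.62 (edgeR adjusted p = 0.45). EREG, the EGF receptor ligand epiregulin, went the other way: 93.9 CPM against 114 and 137 CPM in controls, 266 against 74.0 and 84.1 CPM at 48 h and 1012 against 192 and 149 CPM at 72 h, with a log2 interaction of 2.60 (edgeR adjusted p = 0.45). PEG10, a paternally expressed imprinted gene, was at 64.1 CPM against 71.5 and 65.3 CPM in controls, 86.8 against 38.85 and 37.2 CPM at 48 h and 119 against 42.1 and 41.4 CPM at 72 h (log2 interaction 1.45, edgeR adjusted p = 0.45). In these 3 genes the later passages lay together and passage 8 lay apart from them in both treated groups. Choice by the smallest p of the interaction favours such an order.

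As a scale, passages 13 and 12 were compared in the same way. edgeR called no gene of 15440 (0%), with 602 (3.9%) at an unadjusted p under 0.05, against 2332 for passage 8, and DESeq2 called 35 (0.227%), 2 higher and 33 lower in passage 13. The contrast of passage 8 rests on 3 libraries against 6 and that of passage 13 on 3 against 3, so the counts differ in reach as well. FN1 differed by -0.13 on the log2 scale between passages 13 and 12 (edgeR adjusted p = 0.999), against 2.16 for passage 8.

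Genes were also placed along the genome, to see whether neighbours differed together. The median log2 fold change of passage 8 by chromosome ran from -0.07 on chromosome 12 (830 genes) to 0.03 on chromosome 4 (553 genes). Over 298 runs of 50 neighbouring tested genes the median ran from -0.27 to 0.20. The lowest run, at 24424565 to 26415216 on chromosome 6, holds part of the large histone cluster and had medians of 0.05 in controls, 0.19 at 48 h and -0.97 at 72 h. The highest, at 15002674 to 39594707 on chromosome 4, had medians of 0.04, 0.27 and 0.31.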

How the data were processed

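Total RNA was measured in 9 libraries, grouped by their labels, in which replicates 1, 2 and 3 of each group are passages 12, 13 and 8. The files as deposited hold the authors' raw count of reads per gene, with genome build hg38 per the submitters' processing notes. These notes also name STAR 2.5.2a, featureCounts 1.5.0-p1, FastQC 0.11.5 and bcl2fastq 2.17.1.14. The annotation release, the strand setting and what was done with multi-mapping reads were not given in the sources used here, so overlapping, antisense and near-identical genes may share or lose reads. Of 58233 identifiers, 57895 were found in GENCODE release 29, which gave symbols and coordinates.

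edgeR 4.0.16 (R 4.3.3) was used with TMM scaling, the filterByExpr filter by treatment group and robust quasi-likelihood F tests, with treatment group and passage 8 as terms (5 residual degrees of freedom) and Benjamini-Hochberg adjustment over 15440 genes at 0.05. The interaction and the contrast of passages 13 and 12 had 4. CPM uses TMM-scaled library sizes, and per-group log2 differences use log2 CPM with a prior count of 2. SE is approximate, the size of the log2 fold change divided by the root of its F statistic. Alternatives were DESeq2 1.42.0, limma 3.58.1 with passage as a random block, other scalings and filters, a 2-fold threshold, the replicate block and omission of libraries. The tests were tested on simulated data. In that test the passage contrast made 13 false calls, the interaction made 5 and the contrast of the later passages made 6.

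Libraries of 1 group differed by more than sampling noise (chi-square per degree of freedom 8.99 to 159). Which libraries are passage 8 comes from the labels alone, but the comparison, and so its members, and the gene lists were chosen with earlier results of these data known. Named genes were to be those past the adjusted p with at least 10 CPM, which FN1 alone met, and for each list the 3 members past the threshold or, failing that, with the smallest p. Genes named outside that rule are marked as added. Some genes are not reported here.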

Additional observations from a re-analysis of the deposited data

How the results depend on the processing

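Counts of genes called depended on the test and on single libraries. For passage 8 against passages 12 and 13, where edgeR called 1 gene, DESeq2 called 341 (299 higher, 42 lower), the model with passage as a random block 360 (307 higher, 53 lower; estimated correlation -0.17, 241 genes shared with DESeq2), no filter on low counts 1119 of 36944 genes (732 higher, 387 lower), the 6 treated libraries alone 20 (19 higher, 1 lower), and the 2-fold threshold 0, also for genes higher. The replicate block gave 10 calls, 10 of them higher. In that block the number is the passage itself, so it pairs nothing beyond passage. Between 48 h and 72 h, deviations of same-numbered libraries from their group means correlated at 0.49 in passages 8 and 13 and at -0.03 in passage 12. Between controls and treated libraries they correlated at 0.04 to 0.12. The main fit treated the libraries as independent. DESeq2 without the passage 8 library of 72 h, added after seeing the data, called 10 (9 higher, 1 lower). Leaving out libraries or passages gave 0 to 635 calls in edgeR, 0 to 425 higher and 0 to 210 lower. The highest counts came without the passage 8 control, and there were 0 without passage 13, without its 72 h library and without the passage 8 library of 48 h. Without passage 12 there were 5, without its control, 48 h or 72 h library 4, 4 and 3, and without the control or 48 h library of passage 13 there were 6 and 4. For the interaction, DESeq2 gave 19 calls, no filter 225 and the replicate block 0. Leaving out libraries gave 0 to 138, with 138 without passage 12, 33 without its 48 h library and 6 without the passage 8 library of 48 h, and it could not be fitted without the passage 8 control. For passage 13 against 12, DESeq2 gave 35, no filter 143, the 6 libraries of those passages alone 3, and leaving out libraries 0 to 10, with 10 without the passage 8 library of 72 h and 1 without the passage 12 library of 72 h. A random block of passage could not be fitted there. Causes were not tested. Other scalings and a 1 CPM filter left the count of calls at 1. Of 2576 fold changes of named genes under alternatives, 11 changed sign, none of FN1, the called gene. These genes were mostly chosen by a small p or a call, which favours a stable sign. Of 546 list medians, 56 changed sign or moved by 0.2 or more.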
